A study of Mus musculus with 4 samples.

Results

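The transcripts of prefoldin and of the related URI1 complex were followed in mouse late 2-cell (2C) embryos. The members were 8 genes of the 26022 in the deposited count table, taken by symbol. *Vbp1*, *Pfdn1*, *Pfdn2*, *Pfdn4*, *Pfdn5* and *Pfdn6* encode the 6 subunits of the prefoldin hexamer (*Vbp1* encodes the subunit also named PFDN3), and *Uri1* and *Pdrg1* encode prefoldin-like proteins of a second complex. The group was chosen by a measured value, the lower level of *Pfdn6* in treated embryos, so that the differences between treated and control embryos are given for the members as a description. Their standard errors come from the fit across all genes, and calls among them are only counted beside the share of all genes.

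Embryos treated with Mdivi-1, a small-molecule inhibitor of the mitochondrial fission protein DRP1, were compared with control embryos. Both groups came from naturally mated, hormone-primed ICR females, an outbred strain, of 7 to 8 weeks. The treated embryos spent 16 h from the zygote stage on in KSOM, an embryo culture medium, that held 200 μM Mdivi-1, and the controls spent the same time in KSOM alone. A group was made up of 8 to 10 embryos. The 2 libraries of Mdivi-1 embryos and the 2 of control embryos were made by Smart-Seq2, which amplifies polyadenylated RNA from few cells and keeps no strand. The sources used here name neither the litters behind each library, so that the spread between replicates may be technical, nor a vehicle for the control embryos. Moreover, in pooled embryos fewer cells and less RNA per cell cannot be told apart. The study also reports that treated embryos were delayed in development after longer culture. Whether the groups differed in stage when collected was not tested here.

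Prefoldin takes newly made actin and tubulin chains as they leave the ribosome and passes them to the chaperonin CCT, where they fold. Its hexamer is built on a pair of alpha-type subunits, VBP1 and PFDN5, and the other subunits are of the beta type. In the URI1 complex, which is known from human cells, URI1 and UXT take the alpha places, and PFDN2, PFDN6 and PDRG1 are among the beta subunits. That complex binds the R2TP co-chaperone and helps to assemble RNA polymerases and other large particles. The late 2C stage follows the main wave of zygotic genome activation, when stored maternal transcripts are being replaced.

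Library totals lay between 17712075 and 20077326 counts, with 14793 to 16311 genes counted in each. Levels are given as CPM, counts relative to the library's total after TMM scaling, which corrects that total for a few dominant genes. All 8 members passed the filter on low counts, as did 14259 genes in all. Of 8 markers of the 2C embryo and oocyte all 8 passed it, although *Pou5f1* stayed between 0.919 and 1.96 CPM. Markers of cumulus cells summed to 17.2 and 18.5 CPM in Mdivi-1 embryos and 7.78 and 16.3 CPM in control embryos, with *Amh*, *Inha*, *Has2* and *Ptx3* at 0 throughout. Most of this was *Tnfaip6*, with 9.98 and 15.3 CPM in Mdivi-1 embryos and 6.55 and 10.7 CPM in control embryos. The sum of 4 sperm markers was 6.07 and 2.76 CPM in Mdivi-1 embryos and 1.91 and 0.263 CPM in control embryos, with *Tnp2* at 0. Of these *Prm2* had 6.07 and 1.88 CPM in Mdivi-1 embryos and 1.91 and 0 CPM in control embryos. The sum of 5 markers of later lineages was 5.42 and 3.91 CPM in Mdivi-1 embryos and 3.46 and 0.919 CPM in control embryos. It came from *Gata6* and *Eomes*, with *Cdx2*, *Sox17* and *Elf5* at 0. Blood markers summed to 78.0 and 59.5 CPM in Mdivi-1 embryos and 77.1 and 91.2 CPM in control embryos, with *Hbb-bs* and *Hbb-bt* at 0. Most of this was *Hba-a1*, with 54.8 and 46.8 CPM in Mdivi-1 embryos and 59.3 and 56.7 CPM in control embryos. The part of these cells in the results was not tested.

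*Pfdn6* stood apart from the other members. This gene, which encodes a beta subunit used by both complexes, had 61.5 and 54.5 CPM in Mdivi-1 embryos and 176.1 and 229 CPM in control embryos. Both Mdivi-1 libraries lay below both controls, as they did in 23.9% of all genes tested. The gap was wider than the spread within either group, which only describes the value that chose the members. On average *Pfdn6* was 3.49-fold lower in Mdivi-1 embryos, at 58.0 ± 4.91 CPM against 202 ± 37.1 CPM in controls (SD, n = 2 libraries each). The log2 fold change was -1.80 (standard error 0.31). It lay between -1.99 and -1.63 under the 12 other settings tried, including those that left out a library.

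*Pfdn6* (ENSMUSG00000024309) is a small gene of 1523 bp on the minus strand, chr17:33938821-33940343 in GENCODE M21 on GRCm38. Its first base lies 316 bp from that of *Wdr46*, which is read the other way and encodes a nucleolar scaffold of small-subunit rRNA processing. *Wdr46* had 10.7 and 12.7 CPM in Mdivi-1 embryos and 23.9 and 19.0 CPM in control embryos. Here too the treated libraries were below both controls, as in 23.9% of all genes tested. The log2 fold change of *Wdr46* was -0.87 (standard error 0.45), with an adjusted p of 0.391 by edgeR's quasi-likelihood test over all genes. Most of the stretch between the start sites is shown, and whether it bears on the level of either gene was not tested. It is printed from 250 bases before the *Pfdn6* start to 30 bases from the start on, chr17:33940314-33940593 of GRCm38.p6 (RefSeq), minus strand, 5′ to 3′. Capitals mark the ETS heptamer CCGGAAG on either strand, which begins 34 bases before the start and again 7 bases after it.
Pfdn6 promoter: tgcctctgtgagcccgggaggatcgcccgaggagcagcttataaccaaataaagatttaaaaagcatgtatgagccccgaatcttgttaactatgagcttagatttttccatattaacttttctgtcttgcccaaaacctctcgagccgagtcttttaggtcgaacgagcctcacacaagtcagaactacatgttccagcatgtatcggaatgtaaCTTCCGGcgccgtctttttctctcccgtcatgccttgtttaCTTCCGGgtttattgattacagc

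The RefSeq promoter table (250 bases before to 50 after a start) held 7 of the 8 members. The same heptamer was found in those of *Pdrg1* and *Pfdn4*, which are shown for comparison and had log2 fold changes of -0.34 and 0.40.
Pdrg1, chr2:153015377-153015415, minus strand: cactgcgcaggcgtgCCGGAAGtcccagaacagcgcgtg
Pfdn4, chr2:170496448-170496477, plus strand: cccctgccaccccgaCCGGAAGgaataggg
The heptamer was thus in 3 of 7 members, and in 9.93% of the 27025 genes of the table in any window. That table also holds many genes that did not pass the filter here. Shares among the genes tested alone were not computed, so that nothing is read from these counts of motifs. The GC box GGGCGG was in 5 of 7 members (38.2% of genes) and CCAAT in 3 of 7 (41.1%), both strands read, and neither was in the windows of *Pfdn6*. A 10-base YY1 motif was in those of *Pfdn2* and *Vbp1* (0.995% of genes). The TATA box TATAAA (15.7% of genes) was in 0 of 7 members, as were the E-box CACGTG (8.09%), the cAMP response element TGACGTCA (2.03%), the NRF1 palindrome (1.07%) and the heat shock element (0.662%). In the members' windows the ETS heptamer overlapped none of the other motifs searched. The windows of *Pfdn6* held 45.7% and 46.0% G and C, against a median of 52.7% over all windows, while that of *Uri1* held 64.0%. In CG dinucleotides the *Pfdn6* windows were above the median, with 17 and 16 against 7 over all windows, and that of *Uri1* held 24.

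The other members of the hexamer differed less between the groups and not in one direction. Among the alpha subunits, *Vbp1*, whose protein also binds the tumour suppressor VHL, had 349.6 and 358 CPM in Mdivi-1 embryos and 279.8 and 537 CPM in control embryos. The treated libraries lay between the controls, and the log2 fold change of -0.21 (standard error 0.37) turned to 0.31 without control replicate 2. *Pfdn5*, whose protein is also known as the MYC-binding protein MM-1, had 187 and 179.8 CPM in Mdivi-1 embryos and 219.8 and 329 CPM in control embryos. Both treated libraries were lower, with a log2 fold change of -0.58 (standard error 0.32). The controls differed from each other by about as much, 0.58 on the log2 scale. The log2 fold change between the groups became -0.85 without control replicate 1 and -0.29 without control replicate 2.

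Of the beta subunits, *Pfdn2*, which like *Pfdn6* serves both complexes, had 135 and 109 CPM in Mdivi-1 embryos and 140.3 and 183 CPM in control embryos. The treated libraries were below both controls by a narrow margin (log2 fold change -0.41, standard error 0.31, or -0.23 without control replicate 2). *Pfdn1* had 62.5 and 47.0 CPM in Mdivi-1 embryos and 20.2 and 39.0 CPM in control embryos. It was thus higher in both treated libraries, with a log2 fold change of 0.89 (standard error 0.42) that became 0.48 without control replicate 1 and 1.41 without control replicate 2. *Pfdn4* had 65.4 and 62.1 CPM in Mdivi-1 embryos and 37.1 and 59.7 CPM in control embryos. The treated libraries were higher, but control replicate 2 came within a few CPM of them. The log2 fold change of 0.40 (standard error 0.35) became 0.09 without control replicate 1 and 0.76 without control replicate 2.

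In the URI1 complex, *Uri1* encodes the scaffold that binds the polymerase subunit RPB5. It had fewer counts than any other member in 3 of the 4 libraries (*Pfdn1* had fewer in control replicate 1), with 29.6 and 28.6 CPM in Mdivi-1 embryos and 23.9 and 11.7 CPM in control embryos. Both treated libraries were higher, and the size of the difference depended on the control library: the log2 fold change of 0.71 (standard error 0.46) became 0.26 without control replicate 2 and 1.30 without control replicate 1. *Pdrg1*, named for its regulation by p53 and DNA damage, had 138 and 94.5 CPM in Mdivi-1 embryos and 143 and 151 CPM in control embryos. Mdivi-1 replicate 1 was close to the controls, and the log2 fold change of -0.34 (standard error 0.31) became -0.64 without Mdivi-1 replicate 1 and -0.12 without Mdivi-1 replicate 2.

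**Figure D1:**
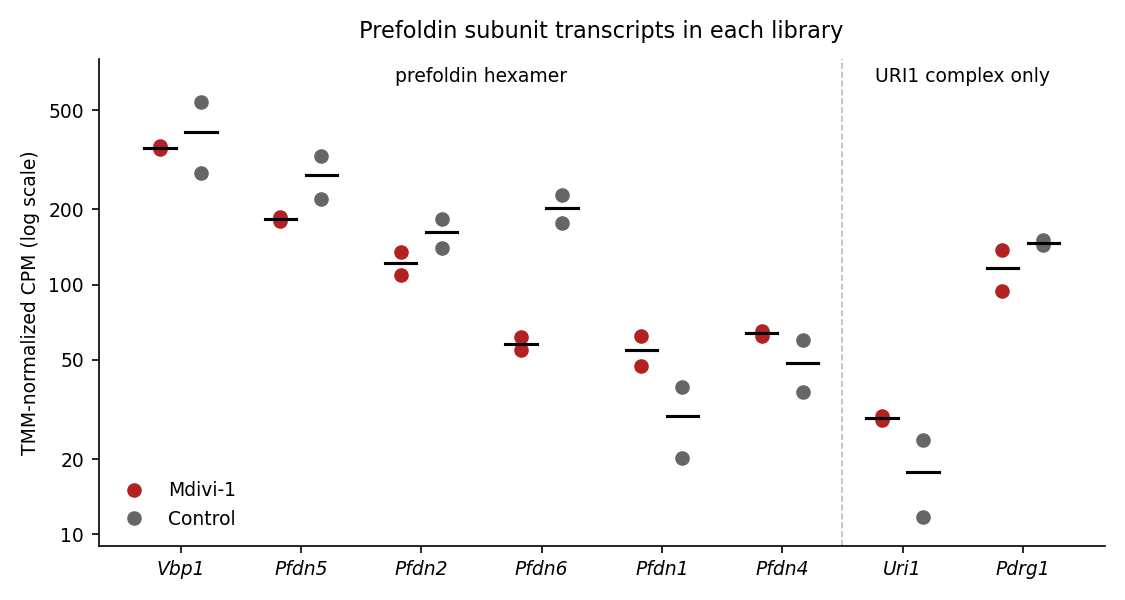
TMM-normalized CPM (y axis, log scale) of the 8 members (x axis) in each library, with Mdivi-1 libraries in red, control libraries in grey and black bars at the group means. *Pfdn6* had 61.5 and 54.5 CPM in Mdivi-1 embryos and 176.1 and 229 CPM in control embryos, while for *Vbp1* the Mdivi-1 libraries lie between the controls.

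Counted over the group, 5 of 8 members had a negative log2 fold change, against 48.7% of all genes tested. The median was -0.27, against 0.03 over all genes tested. It was 0.02, with 4 of 8 members negative, without control replicate 2, and -0.12 when scaled by library totals. In 4 of 8 members (*Pfdn2*, *Pfdn5*, *Pfdn6* and *Pdrg1*) both Mdivi-1 libraries lay below both controls, which was the case in 23.9% of all genes. When scaled by library totals this held for 3 of 8, since *Pdrg1* then overlapped between the groups. In the levels per length given below, *Pdrg1* and *Pfdn2* both overlapped between the groups. In 3 (*Pfdn1*, *Pfdn4* and *Uri1*) both lay above both controls, against 26.1% of all genes. By edgeR's quasi-likelihood test at an adjusted p of 0.05, 0 members were called higher and 0 lower, as were 0% and 0% of all genes. At an unadjusted p under 0.05 the same test gave 0 members as higher and 1 as lower, against 8.27% and 7.64% of all genes. By DESeq2, at over 2-fold and an adjusted p under 0.05, 0 members were higher and 1 lower, against 3.36% and 2.84% of the genes to which it gave an adjusted p. The 1 member is *Pfdn6* in both counts, and nothing is read from them since this contrast chose the group.

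Within a library, levels of different genes were compared as TPM, that is counts per kilobase of all annotated exons, scaled to the same sum in each library. In Mdivi-1 embryos the order was *Vbp1* (350.3 and 373 TPM), *Pfdn5* (286 and 287 TPM), *Pfdn2* (149 and 125 TPM), then *Pfdn6* (110.0 and 102 TPM) and *Pfdn1* (120.3 and 94.2 TPM), whose ranges overlap, and *Pfdn4* (55.4 and 54.8 TPM). *Pdrg1* had 120.6 and 86.0 TPM and *Uri1* 17.2 and 17.3 TPM.

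In control embryos *Pfdn5* (374.5 and 363 TPM in replicates 1 and 2), *Vbp1* (312 and 388 TPM) and *Pfdn6* (350.4 and 295 TPM) were the 3 most abundant subunits, and their ranges overlap or nearly meet. *Pfdn2* followed with 172 and 146 TPM, a range that overlaps its range in Mdivi-1 embryos. *Pfdn1* (43.3 and 54.3 TPM) and *Pfdn4* (34.99 and 36.5 TPM) were the least abundant. *Pdrg1* had 139 and 95.3 TPM and *Uri1* 15.4 and 4.93 TPM. *Pfdn6* was thus level with *Pfdn1* in Mdivi-1 embryos and among the most abundant subunits in control embryos. With the length of the longest transcript it was above *Pfdn1* in Mdivi-1 embryos (127 and 116 TPM, against 101 and 78.7 TPM for *Pfdn1*) and next below *Pfdn2* (139 and 117 TPM). The ratio of *Pfdn6* to *Pfdn2*, its fellow beta subunit, was 0.741 and 0.811 in Mdivi-1 embryos and 2.04 and 2.03 in control embryos. Relative to *Pfdn1* it was 0.914 and 1.08 in Mdivi-1 embryos and 8.10 and 5.44 in control embryos. Such ratios are free of the scaling between libraries.

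As a share of the summed TPM of the hexamer, *Pfdn6* made up 10.3% and 9.81% in Mdivi-1 embryos and 27.2% and 23% in control embryos. *Pfdn1* made up 11.2% and 9.10% in Mdivi-1 embryos and 3.36% and 4.23% in control embryos, and *Pfdn4* 5.18% and 5.29% in Mdivi-1 embryos and 2.72% and 2.85% in control embryos. *Pfdn5* made up 26.7% and 27.7% in Mdivi-1 embryos and 29.1% and 28.3% in control embryos. *Pfdn2* made up 13.9% and 12.1% in Mdivi-1 embryos and 13.4% and 11.4% in control embryos, so that the shares of these subunits lay close together in all 4 libraries. *Vbp1* held 32.7% and 36.0% in Mdivi-1 embryos and 24.2% and 30.2% in control embryos. Since the shares are parts of 1 sum, a lower level of *Pfdn6* raises those of the other subunits. That sum was 1071 and 1035 TPM in Mdivi-1 embryos and 1287 and 1283 TPM in control embryos. The TPM of *Vbp1* itself averaged 362 in Mdivi-1 and 350 in control embryos. The most abundant subunit had 6.32 and 6.81 times the TPM of the least abundant in Mdivi-1 embryos, against 10.7 and 10.6 times in control embryos, so that by this length subunit levels were nearer to each other in Mdivi-1 embryos. With the longest transcript as the length, *Pfdn1* took the place of *Pfdn4* as the least abundant subunit in all 4 libraries.

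**Figure D2:**
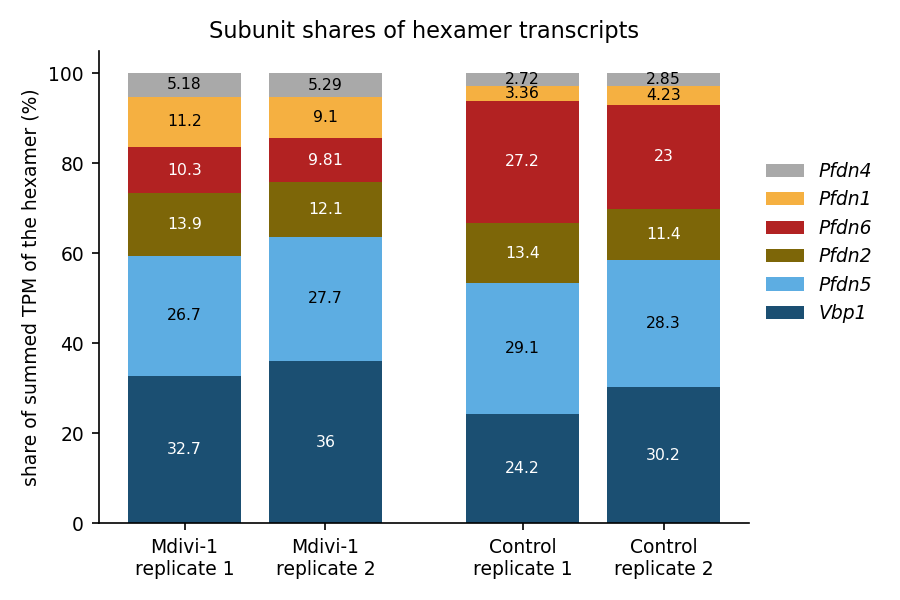
Share of the summed TPM of the 6 hexamer subunits (y axis, percent) taken by each subunit, in the 4 libraries (x axis), with the share printed in each segment. *Pfdn6* (red) takes 10.3% and 9.81% in Mdivi-1 embryos and 27.2% and 23% in control embryos, and *Pfdn1* (orange) takes 11.2% and 9.1% in Mdivi-1 embryos and 3.36% and 4.23% in control embryos.

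The members lie on 7 chromosomes, and only *Pfdn4* (chr2:170496428-170519123, plus strand) and *Pdrg1* (chr2:153008890-153015427, minus strand) share one. In the same annotation *Pfdn2* lies at chr1:171345670-171359254, *Pfdn5* at chr15:102326116-102331873 and *Vbp1* at chrX:75514299-75534942, all on the plus strand, and *Uri1* at chr7:37959992-38023551 and *Pfdn1* at chr18:36403676-36454524 on the minus strand. They differ in size, with spans of 1523 bp for *Pfdn6* to 63560 bp for *Uri1*. Coding sequences are short in 7 of them (366 bp in *Pfdn1* to 588 bp in *Vbp1*), while that of *Uri1* has 1599 bp. Within 1 kb of a member or overlapping it the annotation holds 10 genes, of which 7 were tested. In 6 of these 7 pairs the member and its neighbour had the same sign of log2 fold change, with *Pfdn2* and *Nit1* as the exception. The same share among other pairs of neighbouring genes was not computed, and the log2 fold changes of *Cystm1*, *Gm16796*, *Klhdc9* and *Nit1* were smaller than their standard errors. *Nit1*, an amidase gene read the other way from a start 23 bp away from that of *Pfdn2*, had 76.5 and 73.4 CPM in Mdivi-1 embryos and 75.4 and 61.7 CPM in control embryos (log2 fold change 0.13, standard error 0.30).

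Some of these pairs share exon sequence, where counts without strand are uncertain. *Myg1*, an exonuclease gene, shares 165 bp of exon with *Pfdn5*. It had 13.5 and 16.8 CPM in Mdivi-1 embryos and 37.5 and 28.2 CPM in control embryos, lower in both treated libraries (-1.11 ± 0.41 SE on the log2 scale, with an adjusted p of 0.253 by edgeR and 0.185 by DESeq2). *Pfdn2* shares 535 bp with *Klhdc9*, at 0 and 0.886 CPM in Mdivi-1 embryos and 2.09 and 0.722 CPM in control embryos. *Pfdn4* shares 639 bp with the antisense gene *Gm16796*, at 12.1 and 10.1 CPM in Mdivi-1 embryos and 8.92 and 10.1 CPM in control embryos. *Cystm1*, 578 bp from *Pfdn1*, had 97.0 and 36.5 CPM in Mdivi-1 embryos and 81.1 and 20.7 CPM in control embryos, and *Ttll9*, 407 bp from *Pdrg1*, had 4.29 and 1.20 CPM in Mdivi-1 embryos and 6.69 and 6.69 CPM in control embryos, without shared exons. *Pfdn5* also has a processed pseudogene, *Gm5644*, 97.0% identical over 465 bases, so that reads from the stretches alike in both could not be placed uniquely. *Pfdn6* shares 78 bp with the antisense gene *CR974462.1*. Neither of these genes was analysed here. *Pfdn1*, *Vbp1*, *Pfdn6*, *Uri1* and *Pdrg1* had no other annotated transcript at 90% identity over 100 bases or more.

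**Figure D3:**
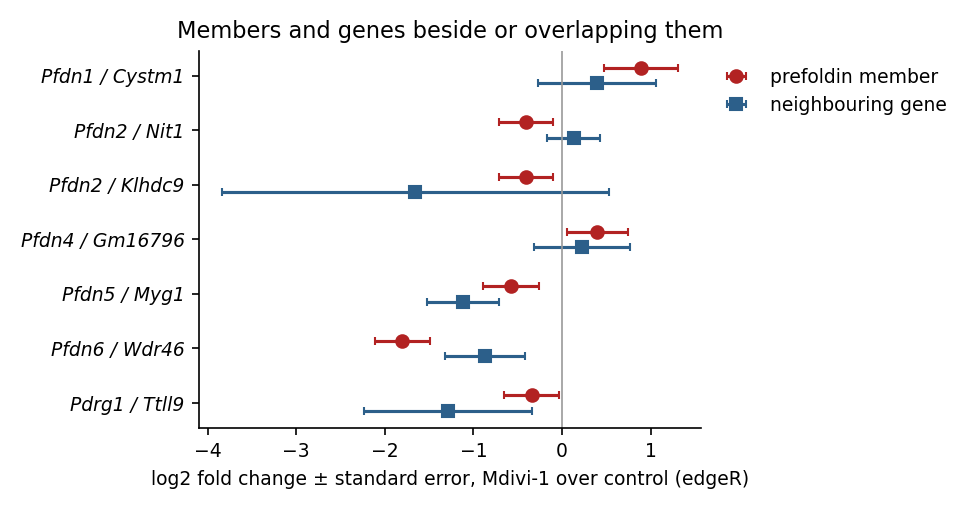
Log2 fold change of Mdivi-1 over control embryos with its standard error (x axis) for each member (red circles) and a tested gene that overlaps it or lies within 1 kb (blue squares). *Pfdn6* and *Wdr46* are at -1.80 and -0.87, *Pfdn5* and *Myg1* at -0.58 and -1.11, and *Pfdn2* and *Nit1* lie on different sides of 0.

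The subunits of CCT, the chaperonin to which prefoldin hands its substrates, had negative log2 fold changes in 9 of 9 genes (median -0.73). The median was -0.61 when scaled by library totals, with 9 of 9 still negative, and 8 of 9 were negative without control replicate 1. In 7 of the 9 both Mdivi-1 libraries lay below both controls, against 23.9% of all genes tested. *Cct4* had 68.9 and 50.8 CPM in Mdivi-1 embryos and 160.3 and 116 CPM in control embryos, with a log2 fold change of -1.21 (SE 0.33; adjusted p of 0.185 by edgeR and 0.0224 by DESeq2). *Tcp1*, *Cct5* and *Cct3* had log2 fold changes of -0.77, -0.81 and -0.73, with edgeR adjusted p of 0.254 to 0.29. By edgeR 0 of the 9 were called at an adjusted p of 0.05. At an unadjusted p under 0.05, 4 were lower, against 7.64% of all genes. DESeq2 called 1 lower at over 2-fold, against 2.84% of the genes to which it gave an adjusted p. Prefoldin, with 5 of 8 members negative, was thus the more uneven group, though this difference was not tested.

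Other helpers of actin and tubulin folding were mixed. Of 4 measured CCT cofactors, 3 had a negative log2 fold change (median -0.20). Without control replicate 1 all 4 were negative (median -0.485), and without control replicate 2 only 2 were (median 0.11). The count was also 2 when scaled by library totals, by limma-voom, with a replicate block and without Mdivi-1 replicate 2. By edgeR 0 were called at an adjusted or unadjusted p under 0.05, and by DESeq2 0. *Txndc9*, a phosducin-like protein that binds CCT, had 536 and 618 CPM in Mdivi-1 embryos and 634 and 875 CPM in control embryos. *Pdcl3* of the same family had a log2 fold change of -1.03 (standard error 0.60). *Pdcd5*, which binds CCT too, had a log2 fold change of -0.02.

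Of 6 measured tubulin folding cofactors, which act after CCT to join alpha- and beta-tubulin, 5 had log2 fold changes below 0 (median -0.53). Leaving out control replicate 1 gave a median of -0.16 with 4 of 6 below 0, and leaving out Mdivi-1 replicate 2 gave -0.22 with 4 of 6. The median was -0.99 when Mdivi-1 replicate 1 was left out and -0.86 when control replicate 2 was. *Tbcb*, which binds alpha-tubulin, had 47.0 and 70.9 CPM in Mdivi-1 embryos and 108 and 164 CPM in control embryos (-1.21 ± 0.36 SE on the log2 scale, with an adjusted p of 0.201 by edgeR and 0.035 by DESeq2). *Tbce*, another of them, had a log2 fold change of -1.13. *Tbca*, which binds beta-tubulin, had 181 and 126 CPM in Mdivi-1 embryos and 63.4 and 131 CPM in control embryos, with overlap between the groups. By edgeR 0 of the 6 passed an adjusted p of 0.05. At an unadjusted p under 0.05, 2 were lower (7.64% of all genes), and DESeq2 called 1 lower (2.84%).

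Transcripts of the substrates did not share a direction. *Actb*, a cytoplasmic actin gene, had 846 and 889.6 CPM in Mdivi-1 embryos and 907 and 1147 CPM in control embryos (-0.24 ± 0.31 SE on the log2 scale, adjusted p of 0.787 by edgeR). The log2 fold changes of all 4 actin genes measured were negative, or of 2 of 4 without Mdivi-1 replicate 2, and among them *Acta1* had 0 counts in both Mdivi-1 libraries against 13 and 10 in the controls. Of 16 tubulin genes measured 7 were negative and 9 positive (median 0.25). Genes of gamma-, delta- and epsilon-tubulin are among the 16, and some had few counts, such as *Tubd1* with 43 and 2 in control embryos. Without control replicate 2 the balance was 12 negative and 6 positive, and without control replicate 1 it was 3 negative and 15 positive. In each of these 2 fits 18 tubulin genes passed the filter, so that the genes counted are not the same set. *Tubb4b*, a beta-tubulin, had 147 and 169 CPM in Mdivi-1 embryos and 192 and 288 CPM in control embryos. *Tuba1c*, an alpha-tubulin, had 44.2 and 50.1 CPM in Mdivi-1 embryos and 28.1 and 19.4 CPM in control embryos (0.99 ± 0.37 SE on the log2 scale, adjusted p of 0.258 by edgeR). By edgeR 0 actin and 0 tubulin genes passed an adjusted p of 0.05. At an unadjusted p under 0.05, 1 tubulin gene was higher (8.27% of all genes), and DESeq2 called 0.

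Among the partners of URI1, *Uxt* and *Asnsd1* lay on different sides of 0. *Uxt*, the alpha-type partner of URI1, had 30.1 and 32.2 CPM in Mdivi-1 embryos and 48.9 and 119 CPM in control embryos. Both treated libraries were below both controls, which differed widely from each other (-1.43 ± 0.45 SE on the log2 scale, with an adjusted p of 0.217 by edgeR and 0.0403 by DESeq2). In TPM the ratio of *Uxt* to *Uri1* was 2.28 and 2.52 in Mdivi-1 embryos and 4.59 and 22.7 in control embryos, a wide spread between the controls. *Asnsd1*, whose messenger RNA carries in its leader the reading frame of ASDURF, another beta-type subunit of the complex in human cells, had 26.4 and 32.7 CPM in Mdivi-1 embryos and 9.28 and 5.91 CPM in control embryos. Its log2 fold change was 1.96 (SE 0.47; adjusted p of 0.164 by edgeR and 0.0184 by DESeq2), and counts per gene do not tell its reading frames apart.

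Of the R2TP and polymerase partners, *Ruvbl2*, an ATPase of R2TP, had 13 and 14 CPM in Mdivi-1 embryos and 28.3 and 33.2 CPM in control embryos (-1.19 ± 0.40 SE on the log2 scale, adjusted p of 0.232 by edgeR). *Polr2e*, which encodes RPB5, had 107 and 74.9 CPM in Mdivi-1 embryos and 139 and 120.9 CPM in control embryos. In all, 7 of these 8 partners had a negative log2 fold change (median -0.51), or 5 of 8 when scaled by library totals. By edgeR 0 of 8 passed an adjusted p of 0.05. At an unadjusted p under 0.05, 1 was higher and 2 lower, against 8.27% and 7.64% of all genes. DESeq2 called 1 higher (*Asnsd1*) and 1 lower (*Uxt*), against 3.36% and 2.84%.

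Adaptors that bring clients to R2TP were negative in 7 of 9 genes (median -0.68). *Ecd*, which binds R2TP and is needed for splicing, had 60.9 and 49.8 CPM in Mdivi-1 embryos and 207 and 180.0 CPM in control embryos. Its log2 fold change of -1.81 (SE 0.30; adjusted p of 0.136 by edgeR and 2.24e-05 by DESeq2) is close to that of *Pfdn6*. *Znhit3* and *Znhit6*, assembly factors of box C/D snoRNPs, had -1.24 and -1.16, with DESeq2 adjusted p of 0.00211 and 0.0115. *Nufip1* of the same pathway had -0.68. By edgeR 0 of the 9 passed an adjusted p of 0.05. At an unadjusted p under 0.05, 3 were lower (7.64% of all genes), and DESeq2 called 3 lower (2.84%). Of the partners of single subunits, *Vhl* (bound by VBP1), *Ppp1cc* (a phosphatase bound by URI1) and *Myc* (bound by PFDN5) had log2 fold changes of -0.78, -0.56 and -1.0, and 0 were called by DESeq2, or by edgeR at an adjusted or unadjusted p under 0.05. *Myc* stayed between 2.03 and 12.5 CPM.

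**Figure D4:**
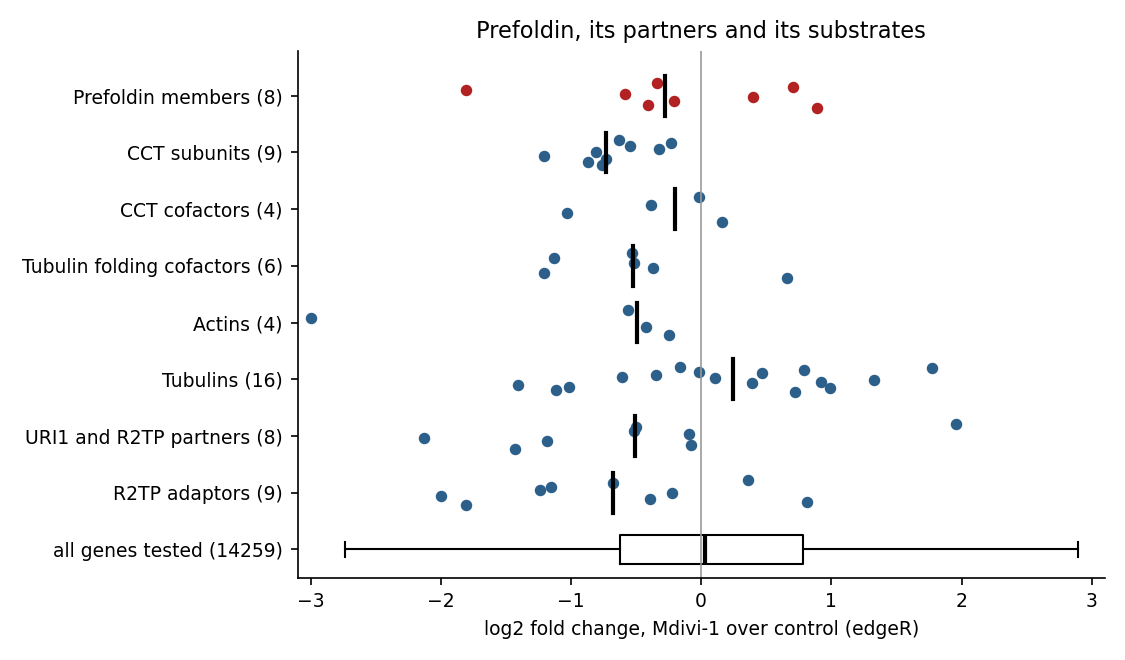
Log2 fold change of Mdivi-1 over control embryos (x axis), with 1 dot per measured gene in each of 8 groups (y axis, with the number of genes), black bars at the medians, and a box of quartiles with whiskers for all 14259 genes tested. Values below -3 are drawn at -3 (*Acta1*). The prefoldin members (red) spread on both sides of 0 around a median of -0.27, while all 9 CCT subunits lie below 0.

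The pattern of *Pfdn6* over the 4 libraries was compared with that of 6784 other genes with at least 10 CPM on average, as the Euclidean distance of log2 CPM centred on each gene's mean. The 5 nearest were *Cox17*, a copper chaperone for cytochrome c oxidase (distance 0.0466), *Ccnq*, a cyclin that pairs with CDK10 (0.147), *Ino80c*, a subunit of the INO80 remodeler (0.189), *Nop9*, a nucleolar protein of ribosomal RNA processing in yeast (0.225), and *Tmem33*, a protein of the ER membrane (0.226). *Cox17* had 8.37 and 7.35 CPM in Mdivi-1 embryos and 24.9 and 31.0 CPM in control embryos, with nearly the same proportions between libraries as *Pfdn6*. Of the other members *Pfdn5* (distance 1.25), *Pfdn2* (1.39) and *Pdrg1* (1.46) were nearest to *Pfdn6*, and 19.3% of the 6784 genes were nearer than *Pfdn5* and 26.1% nearer than *Pfdn2*. *Pfdn1* and *Uri1* (both 2.77) were the farthest, with 85.1% and 85.0% of the genes nearer. In such a measure over 4 libraries the difference between the groups weighs most.

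**Figure D5:**
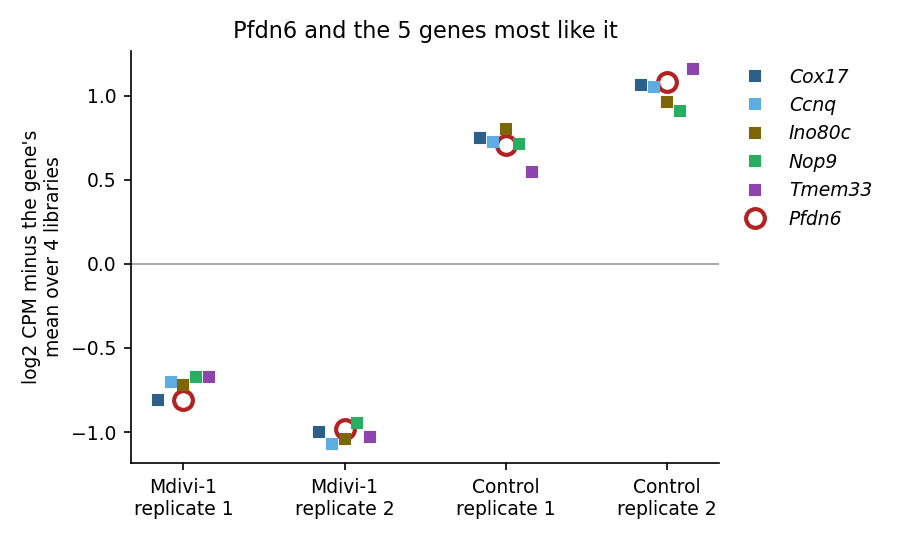
Log2 CPM minus each gene's mean over the 4 libraries (y axis) for *Pfdn6* (red circles) and the 5 genes most like it (squares), in each library (x axis). All 6 genes are below 0 in both Mdivi-1 libraries and above 0 in both control libraries, and *Cox17* lies nearest to *Pfdn6*, at a distance of 0.0466.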

How the data were processed

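Per the labels and the study's methods, the authors trimmed reads with cutadapt 1.16, mapped them with STAR to mm10 and counted uniquely mapped reads in exons. The deposited table holds these raw counts, a signal per gene (the count scaled by each library's size factor) and the columns of the authors' own comparison, whose log2 fold changes, Wald score and p-values were not used. In the raw counts, genes kept by filterByExpr of edgeR 4.0.16 (minimum count 10) were scaled by TMM and tested with the quasi-likelihood test, two-sided, with Benjamini-Hochberg adjustment over all 14259 genes, in R 4.3.3. Standard errors were worked back from this test. DESeq2 1.42.0, the tool of the study, limma-voom of limma 3.58.1, the likelihood ratio test, other scalings and filters, a replicate block and leaving out each library were alternatives. The tests were checked on simulated data. TPM used exon lengths of GENCODE M21 (25995 genes matched by Ensembl ID). Similar transcripts were searched with BLAST 2.17.0. Coordinates in the deposited table differ from GRCm38 for all 8 members and were not used. The members, lists and tests were chosen with earlier results of these data known. Named are the members, genes within 1 kb, up to 4 genes of each list by smallest p, and the 5 genes most like *Pfdn6* without gene models named Gm or Rik.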

Additional observations from a re-analysis of the deposited data

How the results depend on the processing

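With 2 libraries per group the calls depend on the tool, and the log2 fold changes of several members depend on the libraries kept. By the quasi-likelihood test 0 genes were called higher and 0 lower, against 455 and 364 without a low-count filter, 467 and 400 by DESeq2, 125 and 77 by limma-voom and 512 and 358 by the likelihood ratio test. Of the listed partner genes, 0 were called higher and 0 lower, against 1 and 5 without a filter, 1 and 6 by DESeq2, 0 and 1 by limma-voom, and 1 and 5 by the likelihood ratio test; the cause was not tested. Leaving out 1 library in turn gave 0 to 411 genes called higher, 0 to 392 lower, 0 to 3 listed genes higher and 0 to 5 lower, all highest without control replicate 1. In such a fit the lone library is assumed to vary like the other group. It also gave a median of the members between -0.491 and 0.018, the higher value without control replicate 2, where *Vbp1*, between -0.61 and 0.313 over these fits, was highest. Scaling by library totals moved the median of all genes to 0.14 and that of the members to -0.12. With the longest transcript as length, the mean TPM over the 4 libraries was 65.3 for *Pfdn1*, 92.1 for *Pfdn4*, 360 for *Pfdn5*, 245 for *Pfdn6* and 174 for *Pdrg1*. The members' other log2 fold changes and mean TPM moved by less than the spread between libraries, with exceptions when 1 library was left out. These were the log2 fold changes of *Uri1*, *Pfdn1*, *Pfdn4*, *Pfdn5* and *Pdrg1*, which kept their sign. Medians of the gene lists were not compared with a spread, and some moved widely. That of the actins was -0.49, or -3.12 without Mdivi-1 replicate 1. That of the tubulins was 0.25, or 1.24 without control replicate 1. Same-numbered libraries did not deviate together (Pearson's r = 0.00809 across 14259 genes, which are not independent replicates), and with the replicate number as a block 0 genes were called, 5 members were negative and their median was -0.25.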
